A study of Mus musculus with 6 samples.

Results

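The response of resting macrophages to lipopolysaccharide (LPS) was read by setting the array of LPS-treated cells against the array of cells given no treatment, 2 of the 6 arrays of the series. The cells were thioglycollate-elicited macrophages, which a sterile irritant recruits into the peritoneal cavity, from female C57BL/6 mice aged 6 weeks; they are resting only in the sense that no LPS was added, and both groups share this elicitation. The other arrays carried TSA (trichostatin A, an inhibitor of histone deacetylases), TSA + LPS, GW3965 + LPS (GW3965 activates the liver X receptors, LXR, which sense oxysterols) and TSA + GW3965 + LPS, from the same strain, sex and age. Doses, times and the number of mice behind an array are not in the labels. All 8841 named genes were compared without selection. A gene counted as measured when the brighter of the 2 arrays stood at or above that array's median, which 4790 genes did. Values are intensities, in units where each array's median is close to 1 (0.984 without LPS and 0.981 with it). They were raised to a floor at the array's 25th percentile, 0.228 and 0.198 units, before log2 was taken. A fold against a value under the floor is therefore a lower bound, written "at least". Where a pair of readings is given for a gene, the array without LPS comes first.

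LPS, a glycolipid of the outer membrane of Gram-negative bacteria, is handed by CD14 to the receptor Tlr4 on the macrophage surface. Adaptors that contain Myd88 then activate NF-kB and AP-1, which switch on cytokine and chemokine genes, and a second branch activates interferon regulatory factors. Interferon made by the cells acts back on them through STAT factors, which bind the interferon-stimulated response element (ISRE) and switch on antiviral genes.

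Each group has 1 array, so a difference between the 2 arrays has no error and no test. "Higher" and "lower" below mean at least 2-fold apart between the 2 arrays. Genes under the median on both arrays are left out, and a gene under it without LPS counts as measured only through the LPS array. This can raise the shares and medians of lists. TSA + LPS against TSA, a second pair with and without LPS that shares no array with the first, gives a second reading of each gene in the presence of TSA; there 440 of 4785 measured genes were at least 2-fold higher (9.2%) and 305 lower (6.37%). "Rose" and "fell" are kept for genes called by limma for the mean LPS effect over both pairs, from an additive model of LPS, GW3965 and TSA over all 6 arrays, at a Benjamini-Hochberg adjusted p under 0.05. It called 626 of 5080 genes as risen (12.3%) and 361 as fallen (7.11%). Whether the arrays stand for separate cultures or animals is not in the labels. No group has a replicate array, so the error behind the p-values is the departure from additive effects, moderated by the trend over genes. That departure includes any change that TSA made to the LPS or GW3965 effect, which cannot be told apart from spread between replicates. A gene whose LPS effect differed with TSA is therefore less likely to pass.

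The promoters of the 6 highest genes that have a window in the RefSeq promoter table, and of the 2 lowest genes, show what lies before the start of the genes at the ends of the response. Each sequence is the 250 bases before the first listed start in GRCm38.p6, 5′ to 3′ on the gene's strand, and capitals mark matches to the motifs searched on both strands.
Il1b: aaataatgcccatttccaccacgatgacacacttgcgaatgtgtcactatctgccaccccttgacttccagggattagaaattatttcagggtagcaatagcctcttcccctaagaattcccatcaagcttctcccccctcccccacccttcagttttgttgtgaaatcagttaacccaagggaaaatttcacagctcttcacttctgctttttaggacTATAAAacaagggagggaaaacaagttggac
Il6: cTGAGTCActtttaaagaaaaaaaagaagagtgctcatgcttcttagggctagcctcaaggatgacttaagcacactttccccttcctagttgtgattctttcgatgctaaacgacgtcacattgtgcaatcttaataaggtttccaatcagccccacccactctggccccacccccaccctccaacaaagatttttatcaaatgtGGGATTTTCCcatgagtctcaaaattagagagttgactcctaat
Cxcl10: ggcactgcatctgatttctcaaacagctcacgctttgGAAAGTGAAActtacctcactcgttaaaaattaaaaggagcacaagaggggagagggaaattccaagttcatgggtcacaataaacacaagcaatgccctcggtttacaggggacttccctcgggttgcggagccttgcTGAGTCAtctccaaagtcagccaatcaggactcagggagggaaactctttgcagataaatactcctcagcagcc
Ifit1: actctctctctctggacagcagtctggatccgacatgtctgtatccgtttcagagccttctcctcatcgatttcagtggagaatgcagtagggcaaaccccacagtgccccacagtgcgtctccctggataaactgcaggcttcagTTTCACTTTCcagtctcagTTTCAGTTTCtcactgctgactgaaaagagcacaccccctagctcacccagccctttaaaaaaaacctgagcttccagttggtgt
Fpr2: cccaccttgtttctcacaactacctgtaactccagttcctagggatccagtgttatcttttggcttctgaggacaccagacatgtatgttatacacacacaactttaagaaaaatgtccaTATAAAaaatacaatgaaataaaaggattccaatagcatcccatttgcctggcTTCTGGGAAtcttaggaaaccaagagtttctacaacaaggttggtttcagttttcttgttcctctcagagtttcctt
Ifit3: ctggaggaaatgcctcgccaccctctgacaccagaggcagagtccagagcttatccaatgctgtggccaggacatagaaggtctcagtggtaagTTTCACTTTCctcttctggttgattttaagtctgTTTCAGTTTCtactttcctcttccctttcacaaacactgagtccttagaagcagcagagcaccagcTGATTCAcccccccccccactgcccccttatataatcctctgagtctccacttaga
Susd3: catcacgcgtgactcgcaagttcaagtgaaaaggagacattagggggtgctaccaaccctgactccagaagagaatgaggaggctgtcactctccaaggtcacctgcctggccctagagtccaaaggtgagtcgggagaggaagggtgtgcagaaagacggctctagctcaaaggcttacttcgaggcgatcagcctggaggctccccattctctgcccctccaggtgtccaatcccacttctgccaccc
Tmem273: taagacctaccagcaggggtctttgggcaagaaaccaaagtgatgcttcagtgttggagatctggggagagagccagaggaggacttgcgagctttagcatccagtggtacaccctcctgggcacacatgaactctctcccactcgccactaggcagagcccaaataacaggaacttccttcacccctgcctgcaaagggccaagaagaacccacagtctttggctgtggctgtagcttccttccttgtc
The windows lie, in the same build, for Il1b at chr2:129371140-129371389, minus strand; Il6 at chr5:30012864-30013113, plus strand; Cxcl10 at chr5:92348890-92349139, minus strand; Ifit1 at chr19:34640639-34640888, plus strand. The other windows lie, for Fpr2 at chr17:17887574-17887823, plus strand; Ifit3 at chr19:34583279-34583528, plus strand; Susd3 at chr13:49248295-49248544, minus strand; Tmem273 at chr14:32785713-32785962, plus strand.

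The motifs were kappa B, the site of NF-kB, as GGG, any 2 bases and TTTCC; ISRE, as GAAA, any 2 bases and GAAA; GAS (TTCNNNGAA), the site of STAT dimers; AP-1 (TGANTCA); CRE (TGACGTCA), the site of cyclic AMP-responsive factors; and the TATA box (TATAAA). Il6 held GGGATTTTCC from 44 to 35 bases before its start. Ifit1 and Ifit3 each held TTTCACTTTC and TTTCAGTTTC, both matches to ISRE on the opposite strand. Cxcl10 held GAAAGTGAAA from 213 to 204 bases before its start. Il1b held TATAAA from 31 to 26 bases before its start, and Fpr2 held TTCTGGGAA, a match to GAS. The windows of Susd3 and Tmem273 held no match. A match is a description of letters, and no match says only that these letters are not in the window.

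Il1b, the fever-inducing interleukin-1 beta, read 0.359 without LPS and 674 with it, and 0.28 and 475 in the pair given TSA. Its mean LPS effect was 10.8 on the log2 scale in limma (adjusted p = 5.19e-17). On the 2 arrays with GW3965 it read 748 and 576, so all 4 arrays with LPS were high and both without it were under the array median. Il6, the cytokine that drives acute phase protein synthesis, read 0.413 without LPS and 180 with it. With TSA it read 0.447 and 52.9, and with GW3965 it read 126 and 31.5, so the 4 LPS arrays spread widely but none overlapped the 2 without LPS.

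Of all 8841 named genes, measured or not, 751 were higher with LPS and 406 lower. Of the 4790 measured genes, 669 were higher with LPS (14.0%) and 290 were lower (6.05%). The list counts below are to be read beside these shares of measured genes. The larger differences were nearly all on the higher side. Among higher genes 407 (60.8%) lay between 2-fold and 4-fold, 129 between 4-fold and 8-fold and 72 between 8-fold and 16-fold. A further 25 lay between 16-fold and 32-fold, 18 between 32-fold and 64-fold and 18 at 64-fold or more. Among lower genes 238 (82.1%) lay under 4-fold, 45 between 4-fold and 8-fold, 7 between 8-fold and 16-fold, and 0 beyond that. The median difference of all measured genes was 0.02 on the log2 scale. The split depends on scaling: higher genes were 69.8% of those apart by 2-fold, and 56.6% after quantile normalization (560 higher and 429 lower), which moved the median of all measured genes to −0.17.

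**Figure D1:**
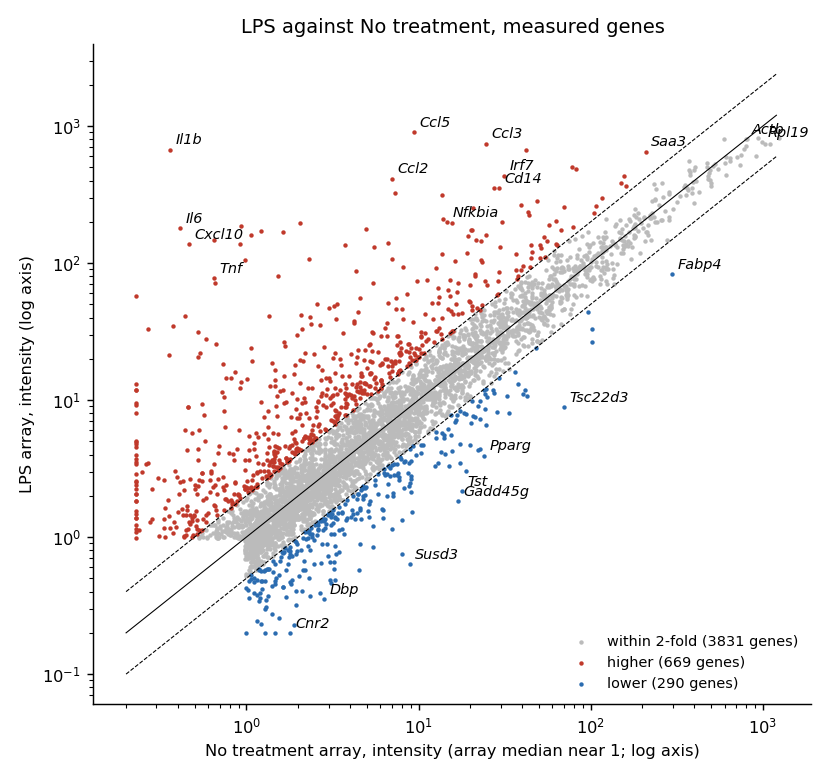
Intensity of each of the 4790 measured genes on the No treatment array (x axis, log scale) and on the LPS array (y axis, log scale), values under the floor drawn at the floor; the solid line marks equality and the dashed lines 2-fold. The 669 higher genes reach much farther from the line than the 290 lower genes, up to Il1b at 0.359 and 674.

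Most higher genes were already above background before LPS. Of the 669, 485 (72.5%) stood at or above the array median without LPS, with a median fold of 2.91. Another 152 (22.7%) lay between floor and median, with a median fold of 4.06, and 32 (4.78%) lay under the floor, where the median of the lower bounds was 11.9. Few lower genes reached background: with LPS 182 of the 290 (62.8%) stayed at or above the median, 104 lay between floor and median and 4 (1.38%) under the floor. In summed intensity, where probes differ in brightness per transcript, the 669 genes made up 5.3% of the signal of all named genes without LPS and 22.4% with it. The same genes, chosen on the LPS array, made up 6.17% on the TSA array and 16.5% with TSA + LPS. The 290 lower genes went from 2.68% of the signal to 0.773%.

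The 25 highest genes ran from 51.6-fold (at least, Cmpk2) to 1880-fold, and 4 of them were under the floor without LPS. They were picked on these 2 arrays, which also enter the limma fit, so the TSA pair is the separate reading: there all 25 were at least 2-fold higher. They are mostly secreted cytokines and chemokines and interferon-induced effectors. Outside those classes stood Vcan, a matrix proteoglycan, which read 0.354 without LPS and 21.2 with it, against 2.46 and 14.8 in the TSA pair. Edn1, the vasoconstrictor peptide endothelin-1, read 0.525 and 31.3, against 0.525 and 6.15 in the TSA pair. Fv1, a restriction factor derived from an endogenous retrovirus, read 0.188 and 13, at least 56.8-fold, and 0.0813 and 7.78 in the TSA pair.

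The 25 lowest genes ran from 5.55-fold to 14-fold, from levels of 1.28 to 70.3 units without LPS; 3 were under the floor with LPS. They too were picked on these 2 arrays, and in the TSA pair 23 of the 25 were at least 2-fold lower. Susd3 read 8.91 without LPS and 0.636 with it, but 14.7 and 6.87 in the TSA pair, a difference of −1.10 in place of −3.81 on the log2 scale. Fbxo32, a ubiquitin ligase of muscle wasting, read 9.16 and 1.53, and 15.9 and 1.21 in the TSA pair. Deptor, an inhibitor of the growth kinase mTOR, read 3.23 and 0.582. With the probes of Deptor averaged, its difference was −1.34 in place of −2.47 on the log2 scale. Lpin1, a phosphatidate phosphatase, read 3.11 and 0.459, and Hdac5, a histone deacetylase, 5.44 and 0.844. Arrb1, which uncouples receptors from G proteins, read 1.28 and 0.194, at least 6.47-fold lower, and Map4k1, a kinase that restrains lymphocyte receptors, 6.99 and 1.15. With a floor at the array median, Cnr2, Tmem158, Chek2, Arrb1, Chst10 and Tpra1 were less than 2-fold lower.

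**Figure D2:**
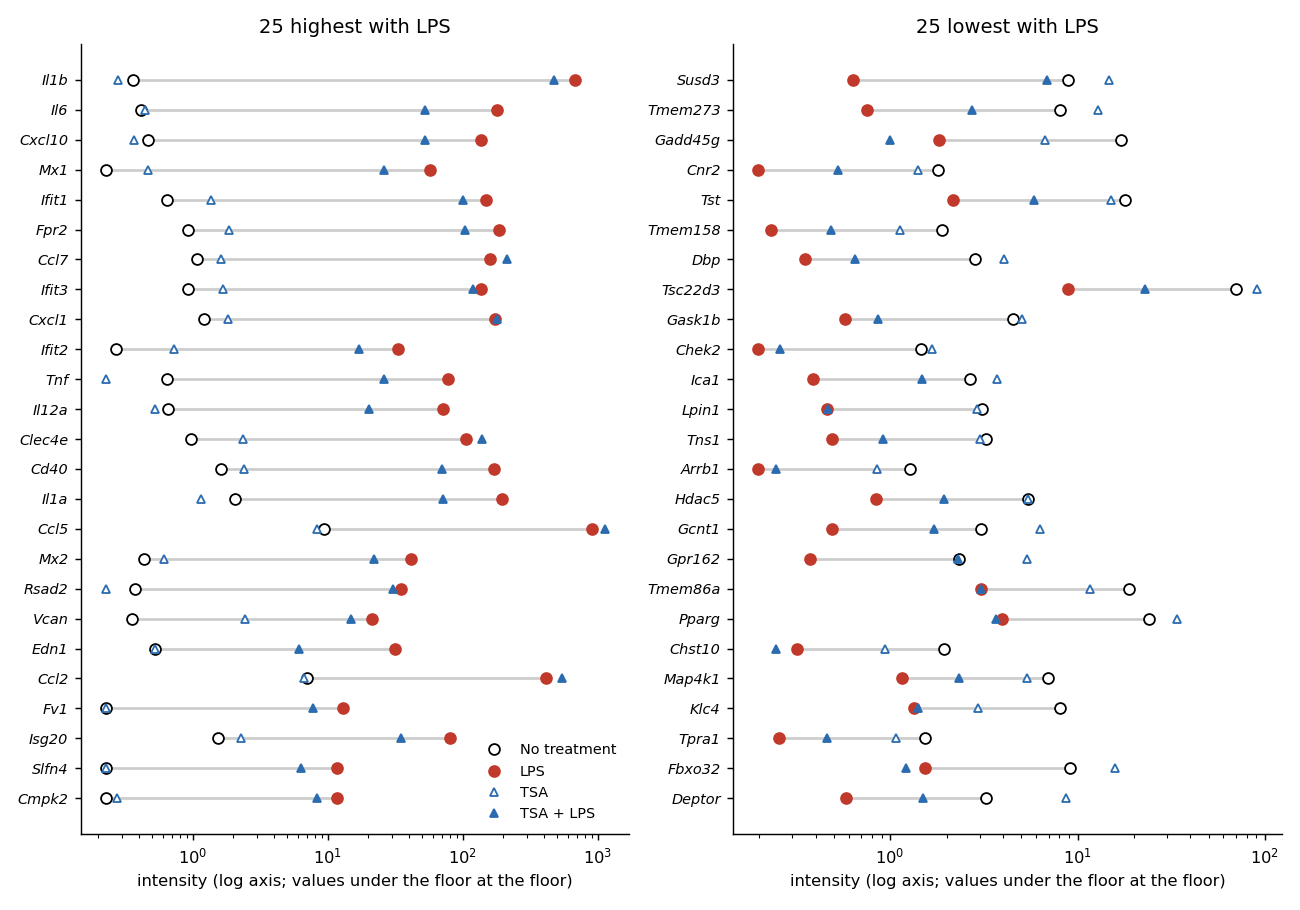
Intensity (log scale) of the 25 highest genes with LPS (left) and the 25 lowest (right), each with 1 value per array: No treatment, LPS, TSA and TSA + LPS; values under the floor are drawn at the floor. Filled symbols lie to the right of open ones for all 25 highest genes, and to the left for all 25 lowest.

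Among the components that detect LPS, Tlr4 itself read 1.21 without LPS and 1.14 with it. Its partner Cd14 read 29.2 and 351, and 21.6 and 174 in the TSA pair. Of 12 measured members of the receptor complex and its adaptors 6 were higher and 0 lower, with a median of 1.24 on the log2 scale. Of these 12 members 7 rose and 0 fell. Myd88, the adaptor of most Toll-like receptors, read 5.38 and 22.8. Peli1, a ubiquitin ligase of the pathway, read 2.46 and 21.6. The kinases Tbk1 and Ikbke, which activate interferon regulatory factors, went from 6.59 to 19.9 and from 14.9 to 46.5. Of 6 other Toll-like receptors 5 rose and 0 fell; Tlr2 and Tlr1, which pair on bacterial lipopeptides, read 4.97 and 178 and 4.20 and 36.4. Tlr3, the receptor for double-stranded RNA, read 0.48 and 5.75, against 0.639 and 1.87 in the TSA pair.

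Of 12 measured genes of NF-kB subunits, inhibitors and kinases 9 were higher and 0 lower (median 1.83), and 9 rose. Nfkbia, the inhibitor that NF-kB itself induces, read 14.7 and 198. The subunits Nfkb2 and Rel read 1.46 and 16.7 and 0.306 and 2.68. Traf1, an adaptor of TNF receptors, read 5.53 and 130. The AP-1, ATF and immediate early factors were mixed, with 3 of 14 higher and 2 lower (median 0.78), beside 14.0% and 6.05% of all measured genes. In limma 6 rose and 1 fell, beside 12.3% and 7.11% of all genes tested. After quantile normalization 1 was higher and 3 lower (median 0.53). Batf read 6.54 and 36.4 and rose, while Jun, which AP-1 is named with, read 8.68 and 2.94 and fell. Cebpb, a factor that works with NF-kB on cytokine genes, read 10.1 and 23.7, and 5.07 and 53.3 with TSA; its difference was 0.94 after quantile normalization, and that of Cebpd was 0.98 in place of 1.19. Cebpa, a factor of myeloid differentiation, read 1.2 and 0.388 and did not pass (adjusted p = 0.132 in limma).

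Feedback inhibitors were called in both directions, 11 higher and 4 lower of 19 (median 1.83), with 10 rising and 4 falling. Socs3 and Socs1, which block cytokine receptor signalling, read 0.854 and 15.9 and 0.719 and 11.5. Cd274, the ligand of the inhibitory receptor PD-1, read 16.3 and 104. The 4 that fell were Tsc22d3, a glucocorticoid-induced regulator, Rgs2, which shortens G protein signals, Inpp5d, a lipid phosphatase, and Sigirr, a decoy-like receptor of the interleukin-1 family. Rgs2 read 102 and 26.6, and 152 and 55.7 in the TSA pair. The Inpp5d and Sigirr differences were −2.01 and −2.03 on the log2 scale; both were chosen for naming after their values were seen.

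Of 18 interleukins and growth factors 11 were higher, 0 lower, and the same number, 11, rose (median 2.50). Il12a, a subunit of the cytokine that drives interferon gamma production, read 0.659 and 71.6. Il1a read 2.04 and 195, and 1.16 and 71.6 in the TSA pair. Il10, the main anti-inflammatory cytokine, was not measured: it read 0.25 and 0.508, under both array medians. Of 10 measured members of the TNF superfamily and its receptors 6 were higher and 2 lower (median 2.65). In limma 6 of 11 rose and 0 fell, and in the TSA pair 6 of 11 were higher and 0 lower. Tnf and Tnfsf9 were under the array median without LPS and so were measured only through the LPS array. Tnf read 0.648 and 77.3. The costimulatory receptor Cd40 read 1.63 and 170, and Tnfsf9, the ligand of the T cell receptor 4-1BB, read 0.929 and 13.6. Tnfrsf12a, the receptor of TWEAK, read 1.98 and 0.797 without TSA and 0.919 and 1.54 with it, opposite directions that were not tested against each other; it did not pass in limma (adjusted p = 0.715).

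CC chemokines, which draw monocytes and T cells, were higher in 12 of 14 and lower in 1 (median 2.87), and 11 of 15 rose. Ccl5 read 9.42 and 900, Ccl2 7.02 and 412, and Ccl3 24.6 and 745. Ccl24, an eosinophil attractant, read 0.553 and 2.95 without TSA but 0.569 and 0.575 with it, and did not pass (adjusted p = 0.0587 in limma). Of 14 CXC and other chemokines on the array 10 were measured, of which 6 were higher and 6 rose, with a median of 2.44 on the log2 scale. Cxcl10, Cxcl11 and Cxcl5 were under the array median without LPS and so were measured only through the LPS array. The ligands of the T cell receptor Cxcr3 stood together: Cxcl10 read 0.467 and 137, Cxcl9 1.08 and 19.2, and Cxcl11 0.178 and 9.49, at least 41.6-fold. Cxcl1, a neutrophil attractant, read 1.21 and 172.

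The receptors for such attractants and for purines divided, with 4 of 14 higher and 3 lower (median −0.28), 6 rising and 3 falling. Fpr2, a receptor of formylated peptides, read 0.931 and 186, and Ccrl2, a receptor that binds chemerin, 27.5 and 355. P2ry14, the receptor of UDP-glucose, read 19.1 and 118. The 3 that fell were Ccr1, Cnr2 and Ptger2, receptors for chemokines, cannabinoids and prostaglandin E; Cnr2 read 1.80 and 0.191.

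Nearly all measured genes of the interferon effector lists were higher. All 10 interferon-inducible GTPases, which attack the vacuoles of intracellular microbes, were higher and rose (median 3.90). Of 33 antiviral effectors 32 were higher and 31 rose (median 3.89), and Ifitm2, at a difference of 0.29, was the measured member within 2-fold. Gbp3 read 3.73 and 135, Tgtp1 13.6 and 314, and Ifi47 42.3 and 665. In the TSA pair these GTPases started higher: Tgtp1 read 69.3 and 400, and Ifi47 115 and 827. Mx1, a GTPase of the Mx family, read 0.144 and 57.3, and Isg20, an RNA exonuclease, 1.53 and 80.4. Probes of near-identical gene copies, such as the Slfn, Ifit, Gbp and Mx families, may share signal, which was not tested.

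Upstream of these effectors, 10 of 18 interferons, IRF and STAT factors were higher and 1 lower (median 1.05), and 10 of 19 rose. Irf7, the amplifier of type I interferon, read 31.4 and 433, and Irf1 23.2 and 146. Stat2, part of the complex that binds ISRE, read 0.691 and 4.66, and the kinase Jak2 0.74 and 8.29. Ifng, an interferon usually made by T and NK cells, read 0.267 and 3.48. Of the 15 markers of such cells on the array 3 were measured and all stayed within 2-fold: Gzma read 21.6 and 21.3, Cd2 1.81 and 1.06, and Cd4 2.16 and 1.84. Cd3e, Cd3g and Cd8a were under the floor on both arrays. Of 7 cytosolic sensors 5 were higher and 0 lower (median 2.93). Ifih1, which senses long double-stranded RNA, read 7.29 and 324, Mefv, the sensor pyrin, 0.523 and 20.6, and Casp4, the caspase that binds LPS inside the cell, 8.08 and 93.5. Il12b and Ifnb1 were not analysed here.

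Antigen presentation by MHC class I was higher in 10 of 17 measured members and lower in 0 (median 1.28), and 8 rose; 7 were higher after quantile normalization. The peptide transporters Tap1 and Tap2 read 1.63 and 11.9 and 5.26 and 19.3, and the nonclassical H2-Q7 3.53 and 17.9. Erap1, which trims peptides, read 3.84 and 10.7, and 6.22 and 5.76 with TSA, and did not pass (adjusted p = 0.145 in limma). Among 16 genes of MHC class II and costimulation 5 were higher and 1 lower (median 0.44). Cd86 read 4.47 and 43.6 and Cd83 1.17 and 5.42. Cd200r1, an inhibitory receptor, read 17.5 and 4.78 and fell.

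**Figure D3:**
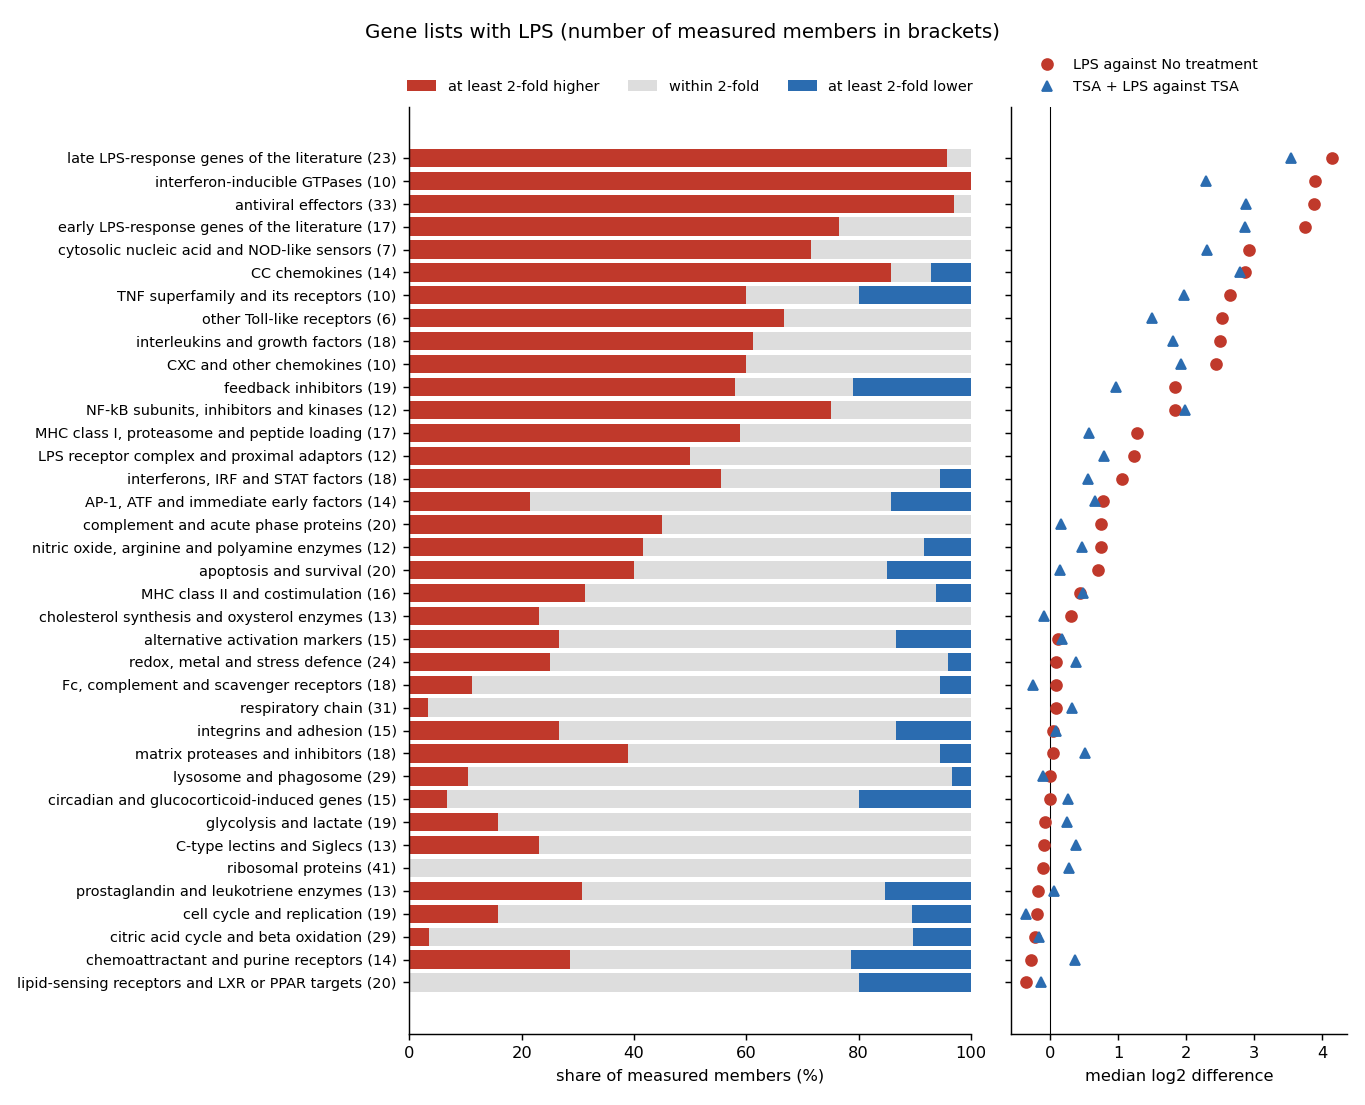
For each of 37 gene lists, the share of measured members (x axis of the left panel, percent) at least 2-fold higher, within 2-fold or at least 2-fold lower with LPS, and the median log2 difference (x axis of the right panel) in each pair of arrays. Interferon-inducible GTPases (median 3.90) and antiviral effectors (3.89) lie near the top, and ribosomal proteins (−0.10), with 0 of 41 members apart, near 0.

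Of 18 Fc, complement and scavenger receptors, which take up particles, 2 were higher and 1 lower, near the shares over all measured genes (14.0% higher and 6.05% lower), with a median of 0.09 that became −0.07 after quantile normalization. Axl, a receptor for dying cells, read 0.334 and 1.17, and its ligand Gas6 1.80 and 0.754; neither was 2-fold apart with a floor at the array median. Fcgr2b, the inhibitory Fc receptor, read 8.64 and 25.5 without TSA and 11.3 and 9.20 with it. Of 13 C-type lectins and Siglecs 3 were higher and 0 lower (median −0.09), beside the same shares over all measured genes. Clec4e, a receptor for mycobacterial glycolipid, read 0.976 and 106, and Clec5a, a receptor for viral glycans, 3.20 and 10.9.

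Of 20 complement and acute phase proteins 9 were higher and 0 lower (median 0.75), and 7 rose. Ptx3, a soluble pattern receptor, read 0.203 and 9.14, at least 40.1-fold, but 0.166 and 0.681 in the TSA pair. Cfb, factor B of the alternative complement pathway, read 2.57 and 50.5, and Serpinb2, an inhibitor of plasminogen activators, 1.67 and 25. Saa3, a serum amyloid protein that macrophages make, read 209 and 652, and coagulation factor F10 77.9 and 500.

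Enzymes of arginine and nitric oxide metabolism were higher in 5 of 12 measured members and lower in 1 (median 0.74). Slc7a2, an arginine transporter, read 2.08 and 41.5, Gch1, which makes the cofactor of nitric oxide synthase, 19.4 and 157, and Ass1, which recycles citrulline, 4.46 and 23.4. Nos2 itself read 2.52 and 5.17; its difference was 1.04, and 0.91 after quantile normalization. Arg1 read 1.34 and 0.581 and did not pass (adjusted p = 0.0894 in limma), while Arg2 read 1.26 and 5.70 and rose. In the prostaglandin and leukotriene list 4 of 13 were higher and 2 lower (median −0.18), or 4 and 4 after quantile normalization. Ptgs2 and Ptges, successive enzymes of prostaglandin E synthesis, read 0.213 and 3.56 and 0.918 and 12.3. The 2 lower members, Lta4h and Ltc4s, which make leukotrienes B and C, fell; Lta4h read 17.5 and 3.49.

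In glycolysis 3 of 19 were higher, near the 14.0% of all measured genes, and 0 lower (median −0.08), or 2 and 2 after quantile normalization. Hif1a, the hypoxia factor, read 5.38 and 31.5, Pfkp 29.5 and 86, and Hk2 6.82 and 14.8. Hk2 did not pass (adjusted p = 0.0661 in limma). In the citric acid cycle and beta oxidation 1 of 29 was higher and 3 lower (median −0.23), and 0 rose while 8 fell. After quantile normalization 8 were lower (median −0.57) and after cyclic loess 5 (median −0.38). Idh1 read 8.94 and 2.48, and Acaa2, the last enzyme of the beta oxidation cycle, 24.2 and 8.63. Cycs, cytochrome c, was the 1 member of 31 in the respiratory chain at 2-fold or more, at 50.5 and 135; the list's median was 0.08, and −0.29 after quantile normalization. Of 41 ribosomal protein genes 0 were higher or lower, and limma called 0 of them. The widest, Rplp1, differed by −0.55.

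Lipid-sensing receptors and the targets of LXR or PPAR were higher in 0 of 20 and lower in 4 (median −0.36), and 5 of 21 fell. Pparg, the receptor that drives fat storage genes, read 24 and 3.94, and 33.8 and 3.66 in the TSA pair. Fabp4, a fatty acid carrier that Pparg induces, read 297 and 83.1, and Plin2, which coats lipid droplets, 97.1 and 44. Scd2, a fatty acid desaturase, read 6.60 and 1.98, and 8.47 with GW3965 + LPS. In sterol metabolism 3 of 13 were higher and 0 lower (median 0.31), beside 14.0% and 6.05% of all measured genes. Ch25h, which makes 25-hydroxycholesterol, read 0.0702 and 3.40, at least 14.9-fold. Cyp51, an enzyme of cholesterol synthesis, read 28.7 and 58.3 without TSA and 32.6 and 24.4 with it, and did not pass (adjusted p = 0.558 in limma).

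In redox and metal defence 6 of 24 were higher and 1 lower, with a median of 0.09 that became −0.12 after quantile normalization. Sod2, the mitochondrial superoxide dismutase, read 20.5 and 175, and Cybb, the catalytic subunit of the phagocyte oxidase, 1.51 and 10.7. Slc7a11, a cystine importer, read 1.27 and 7.58. Circadian and glucocorticoid-induced genes were lower in 3 of 15 and higher in 1 (median −0.01), with 3 rising and 4 falling. Over all measured genes 6.05% were lower and 14.0% higher. After quantile normalization 4 genes of this list were lower and 0 higher. Tsc22d3 read 70.3 and 8.84, the clock output factor Dbp 2.84 and 0.353, and Bhlhe40 8.19 and 3.54.

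Genes of apoptosis and survival were higher in 8 of 20 and lower in 3 (median 0.71). Cflar, an inhibitor of death receptors, read 2.33 and 40.3, and Birc3, an inhibitor of apoptosis, 2.14 and 19.3. In cell cycle and replication 3 of 19 were higher and 2 lower (median −0.20), beside 14.0% and 6.05% of all measured genes. In limma 3 of 21 rose while 6 fell, beside 12.3% and 7.11% of all genes tested. After quantile normalization 3 were higher and 4 lower. Of the members called, the cyclin Ccnd2 read 0.223 and 4.81, the proliferation antigen Mki67 1.65 and 26.7, and the cell cycle inhibitor Cdkn1a 1.46 and 13.9. Chek2 read 1.46 and 0.171, and E2f1 3.14 and 1.48. Ccnd2 was under the floor without LPS, and Chek2 differed by −0.57 on the log2 scale with a floor at the array median. Of 18 matrix proteases and their inhibitors 7 were higher and 1 lower, with a median of 0.04 that became −0.21 after quantile normalization. Mmp14, a membrane-bound collagenase, read 3.21 and 49, and Timp1, an inhibitor of matrix metalloproteinases, 1.41 and 18.6. Lysosome, adhesion and alternative activation counts stand beside 14.0% higher and 6.05% lower over all measured genes. Of 29 lysosome and phagosome genes 3 were higher and 1 lower (median −0.01). Of 15 integrins and adhesion genes 4 were higher and 2 lower, with a median of 0.04 that became −0.16 after quantile normalization; Vcam1, a ligand for leukocyte integrins, read 0.533 and 6.07. Markers of alternative activation were higher in 4 of 15 and lower in 2, with a median of 0.12 that became −0.19 after quantile normalization, where 4 were lower; Ccl17 read 0.331 and 2.62.

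The lists of genes placed early or late after LPS were chosen with earlier results of these data known, so are no outside check. Genes that textbooks place early after LPS were higher in 13 of 17 and lower in 0 (median 3.75), and those placed late in 22 of 23 (median 4.15). With a floor at the array median these medians were 2.75 and 3.78; those of interleukins were 1.56, of the TNF superfamily 2.01, of CC chemokines 2.08 and of antiviral effectors 3.27. The early members that were not higher included Tnfaip3 (−0.37), Dusp1 (−0.21), Atf3 (0.43) and Junb (0.80), on the log2 scale.

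Some brightly read genes did not belong to any list. Among the 10 higher genes with the brightest probes on the LPS array, Rnaset2a, a secreted ribonuclease, read 156 and 432. Among the 10 lower genes with the brightest probes without LPS, Dnmt3a, a DNA methyltransferase, read 41.7 and 11.9, and Lat2, a membrane adaptor, 102 and 33.2. Bex1 read 42.9 and 10.8, Dhrs3, which reduces retinaldehyde, 40.7 and 11, and the adhesion receptor Adgre5 37.8 and 13.2; all 5 of these fell. Tuba4a read 48.2 and 24, and 61.5 and 55.3 with TSA, and did not pass (adjusted p = 0.132 in limma). In all, 200 of the 669 higher genes (29.9%) and 37 of the 290 lower genes (12.8%) belonged to a list.

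The pair given TSA was set beside the first gene by gene. Over the 4530 genes measured in both pairs Pearson's r was 0.809 and Spearman's rho 0.565 between the log2 differences, a description across genes, which are not independent. Of the 669 higher genes 526 (78.6%) rose, and of the 290 lower genes 229 (79%) fell, counts that include the first pair itself. 0 genes higher without TSA were 2-fold lower with it, and 0 the other way round. Of the list members measured in both pairs, the 10 most unlike included Mx1, Ifit2, Gbp3, Iigp1 and Gbp4. The log2 differences were 7.97 and 5.80 for Mx1 and 5.18 and 2.65 for Gbp3. Edn1, Vcam1 and Tlr3 were also among the 10. Cebpb and Tnfrsf12a ran the other way, at 1.23 and 3.39 for Cebpb. Ptx3, not measured in the TSA pair and so not ranked, differed by at least 5.33 and at least 1.58. These differences between pairs were not tested.

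**Figure D4:**
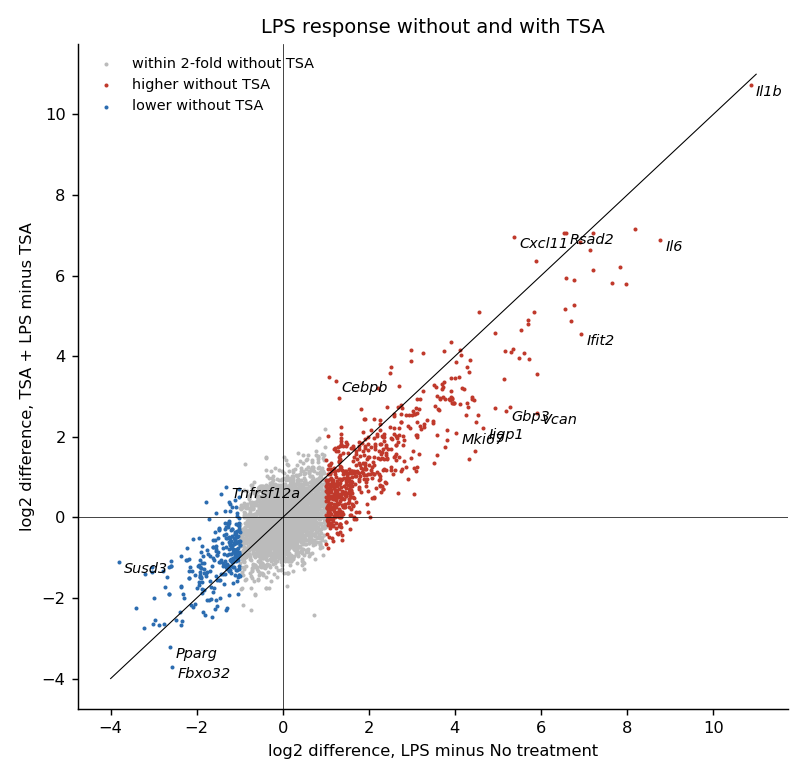
Log2 difference of each gene measured in both pairs, LPS minus No treatment (x axis) and TSA + LPS minus TSA (y axis); the line marks equal values. Of the 669 higher genes most also lie above 0 on the y axis, Il1b at 10.87 and 10.73, and many strongly higher genes, such as Gbp3, lie below the line. Higher genes were called on the x axis pair, and that choice by itself can place genes below the line, which was not tested.

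In the RefSeq gene order of GRCm38.p6, with genes that were not measured skipped, 22 runs of 3 or more higher genes held 82 genes. A share of 14.0% higher genes gives some runs by itself, and the count was not tested against that. The longest, of 8, ran Rffl, Slfn2, Slfn1, Slfn4, Slfn3, Ap2b1, Ccl5 and Ccl9, and joins antiviral and chemokine genes. A run of 7 held Ccdc86, Ms4a1, Ms4a4b, Ms4a6c, Ms4a6b, Ms4a6d and Stx3. Runs of 4 held Ccl2, Ccl7, Ccl12 and Ccl8; Gbp3, Gbp2b, Gbp2 and Lmo4; and Psmb9, Tap1, Psmb8 and Tap2. Runs of 3 held Cxcl9, Cxcl10 and Cxcl11, and Ifit2, Ifit3 and Ifit1. Many of these are duplicated families, whose probes may share signal.

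Promoter windows were found for 548 of the 669 higher genes, 240 of the 290 lower genes and 3123 genes within 2-fold. ISRE was matched in 6.75% of higher, 1.67% of lower and 2.59% of genes within 2-fold, and in 13.8% of the 109 genes at least 8-fold higher. Kappa B was matched in 2.74%, 1.67%, 1.15% and 7.34% of the same groups. GAS was matched in 12.8% of the genes at least 8-fold higher and 5.73% of those within 2-fold, and the TATA box in 20.2% and 7.43%. CRE was matched in 1.83% and 2.79%. Over all 27025 genes of the promoter table the shares were 1.4% for kappa B, 3.04% for ISRE, 7.18% for GAS, 6.87% for AP-1, 1.62% for CRE and 13% for the TATA box. ISRE was matched in 7 of the 8 GTPases with a window and in 7 of 28 antiviral effectors, and kappa B in 4 of 9 NF-kB genes, but ISRE was also matched in 6 of 34 ribosomal protein genes, which did not differ 2-fold. The windows also differed in CpG count, with a median of 6 in the genes at least 8-fold higher, 14 in all higher genes, 13 in lower genes and 15 in those within 2-fold. These shares were not tested.

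**Figure D5:**
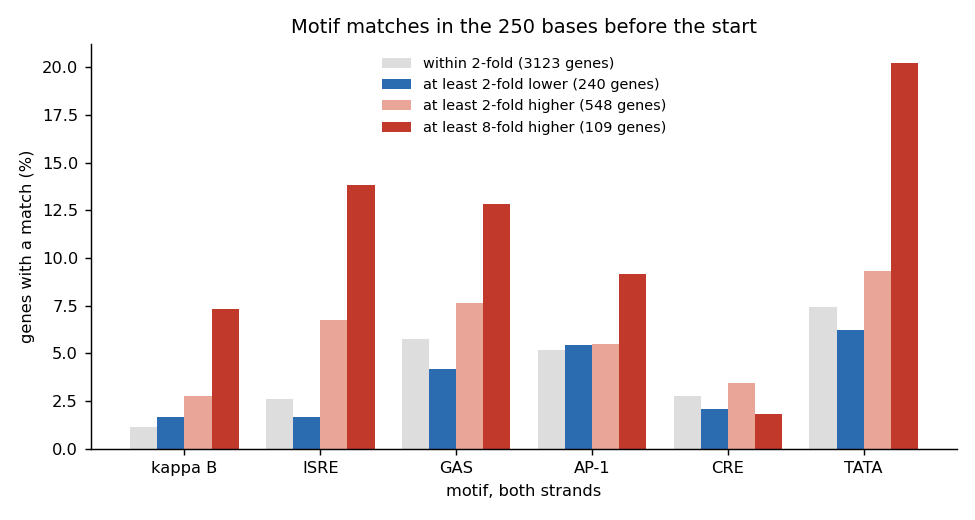
Share of genes (y axis, percent) with a match to each motif (x axis) in the 250 bases before the start, for genes within 2-fold, at least 2-fold lower, at least 2-fold higher and at least 8-fold higher with LPS. In the group at least 8-fold higher the shares were 13.8% for ISRE, 7.34% for kappa B and 20.2% for the TATA box, against 2.59%, 1.15% and 7.43% within 2-fold.

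Markers of macrophages were read on both arrays: Lyz2, Ctss and Lyz1 each stood at 737 or more, and the 16 measured markers summed to 3570 without LPS and 3000 with it. Adgre1, which encodes the antigen F4/80, read 0.73 without LPS, under the array median, and 2.74 with it. Of 11 neutrophil markers on the array 4 were measured and 2 of these were higher: S100a8 read 22 and 47.2, and Camp 0.172 and 2.54, at least 11.1-fold. Ctsg went the other way, at 6.08 and 3.13, and after quantile normalization or cyclic loess 1 marker was higher and 1 lower. Macrophages can also make S100a8. The 11 markers summed to 31.3 without LPS and 56.2 with it, while Mpo, Elane and Prtn3 were under the floor on both arrays. Markers of T and NK cells summed to 29.4 and 27.4, of B cells to 13.6 and 15, of eosinophils and mast cells to 19.5 and 23.3, and of dendritic cells to 25 and 24.3. Markers of mesothelial, fibroblast and endothelial cells summed to 12.9 and 21.4, of which Dcn made up 5.21 and 10.4, with Msln, Col1a1, Pecam1 and Cdh5 under the floor. The part of other cells in the LPS response was not tested, and in bulk RNA fewer cells of a type and less RNA per cell cannot be told apart. Actb read 802 and 805, Gapdh 494 and 405, and Hprt 40.6 and 49.8.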

How the data were processed

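Biotin-labelled RNA of 6 macrophage groups was read on 1-colour arrays, 1 array a group. The deposited intensities are linear, with array medians from 0.981 to 0.987; how the authors scaled them and treated background is not given in the sources used here. Of 10076 probes 8983 carried 1 gene symbol, 1 several and 1092 none. They covered 8841 genes; where a gene had more than 1 probe (138 genes), the probe with the larger mean stood for it. A RefSeq gene table held the IDs of 8975 probes and changed 0 symbols. Values under an array's 25th percentile were raised to it, and log2 was taken. The pair of arrays has no test. The mean LPS effect over both LPS pairs was estimated for 5080 genes with limma 3.58.1 (R 4.3.3) from additive effects of LPS, TSA and GW3965, with trended empirical Bayes variances (residual degrees of freedom 2, prior 16.9) and a two-sided Benjamini-Hochberg adjusted p under 0.05. Standard errors of the named genes ran from 0.21 to 0.55. A floored value enters the fit as the floor, so effects of such genes are approximate. The fit was tested on simulated data with additive LPS effects, independent noise and no floor. That test does not cover genes with floored values or with an LPS effect that TSA changes.

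The genes and lists were chosen with earlier results of these data known. The 37 lists and 7 marker lists held 1082 symbols, of which 807 were on the array, 4 through a synonym. The named genes were 215, set by rule. They held the 25 highest and 25 lowest on the LPS array against No treatment, and the 10 higher and 10 lower with the brightest probes. From each list came the 4 members farthest from 0, and every called member where 6 or fewer were called. The 10 list members most unlike between pairs, among those measured in both, and genes fixed by name were added. The text gives only part of these genes, and some others were named after their values were seen. Of 46 genes with several measured probes, the probes of 35 (76.1%) differed by less than 2-fold in their LPS difference. In 14 of the 46 a probe reached 2-fold while another did not, so the call depended on the probe. In 0 was a probe 2-fold higher and another 2-fold lower. Motifs were searched in the first listed RefSeq window. Alternatives covered scaling, floor, level filter, probe averaging, fold threshold, prior variance and the arrays in the fit. Plots used matplotlib 3.10.9 under Python 3.11.15. The number of arrays limits the precision.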

Additional observations from a re-analysis of the deposited data

Results flagged for a closer look

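Probes with no gene symbol were left out of the gene comparisons. Of 1092 such probes 548 were measured, and 64 of these (11.7%) were at least 2-fold higher with LPS than without it, beside 14.0% of the named genes; 34 (6.2%) were lower. Of the named genes 6.05% were lower, so neither share of the probes with no symbol stood far above that of the named genes. Among the 64 higher probes 7 were at least 8-fold higher, and the largest difference was 124-fold.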

How the results depend on the processing

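Counts followed the thresholds. At 1.5-fold 1130 genes were higher and 673 lower with LPS, and at 4-fold 262 and 52; in the TSA pair these were 897 and 818, and 158 and 36. Restricting genes to those with the brighter array at or above its 75th percentile left 133 lower genes in either pair and 168 that limma called fallen, out of fewer genes tested. With a floor at the array median limma called 205 fallen, and after quantile normalization 557, the cause of which was not tested. The other counts stayed within 1.5 times under every alternative run, including the fit without the 2 arrays given GW3965 (594 risen and 336 fallen). Of 1075 values of named genes under the alternatives 1037 kept their side of the 2-fold threshold, 30 dropped under it and 8 passed it. In 0 did a 2-fold difference become a 2-fold difference in the other direction. Differences near 0, such as that of Actb, can change sign without crossing the threshold. List medians moved in 25 of 307 cases. No paired analysis was possible because the labels carry no replicate numbers and each group has 1 array. Intensities near background limit the folds of genes that start or end there.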
